A study of Homo sapiens with 4 samples.

Results

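The MiT/TFE family of transcription factors has 4 genes in human, TFEC, MITF, TFEB and TFE3, and all 4 were found among the 58037 rows of the gene count table by matching Ensembl identifiers to gene symbols. The set was chosen by the measured values of TFEC in these libraries, which was nearly silent in sgNeg and present in sgNPM1A, so the values of TFEC in this contrast are given as a description with no test. MITF, TFEB and TFE3 were taken as its relatives, whatever their values. All 4 genes passed the filter on low counts, TFEC only through the sgNPM1A libraries in which it was high.

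The counts come from RNA-Seq of OCI-AML3, an established human AML cell line, with 2 libraries from cells transfected with the control guide sgNeg and 2 from cells transfected with sgNPM1A, a CRISPR-Cas9 guide directed at the mutant copy of NPM1 (mtNPM1). The line has heterozygous mutations of NPM1 and DNMT3A and a homozygous NRAS mutation, of which the guide in the sgNPM1A group targets that of NPM1 and the others are shared by both groups. The labels give alpha-MEM with 20% FBS as the medium, where the study's methods name an RPMI medium, and cells were harvested 3 days (72 hours) after transfection. The share of cells that were edited is not given in the sources used here, so each sgNPM1A library is RNA of a transfected population and not of a clone. The labels number the libraries 1 and 2 in each group without naming separate cultures, while the study calls them biological replicates, so the p-values measure only the spread between these libraries.

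MiT/TFE proteins are basic helix-loop-helix leucine zipper factors that bind DNA as homodimers or as heterodimers with each other, at E-boxes with the core CACGTG. TFEB, TFE3 and MITF drive genes of lysosomes and autophagy and are held in the cytoplasm when mTORC1, recruited to the lysosome by Rag GTPases, phosphorylates them. TFEC is the least studied member, is found mainly in myeloid cells such as macrophages, and lacks the acidic activation domain of its relatives. In macrophages its gene is known as a target of PU.1, the product of SPI1, and of interleukin-4 signalling through STAT6.

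The 250 bases before each of the 2 TFEC transcription starts for which RefSeq gives a window (GRCh38.p14, minus strand of chromosome 7) are shown because PU.1 recognises a purine-rich core. Window 1 is chr7:116030764-116031013 and window 2 is chr7:115968310-115968559, and their starts lie 62.5 kb apart within a gene that the annotation extends further upstream. Capitals mark the letters GAGGAA, the core of a PU.1 site, or their reverse complement TTCCTC.
TFEC window 1: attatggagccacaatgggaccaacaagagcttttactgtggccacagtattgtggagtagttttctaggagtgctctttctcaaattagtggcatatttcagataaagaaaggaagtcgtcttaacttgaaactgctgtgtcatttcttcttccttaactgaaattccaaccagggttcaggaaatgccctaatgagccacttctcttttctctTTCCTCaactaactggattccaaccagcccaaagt
TFEC window 2: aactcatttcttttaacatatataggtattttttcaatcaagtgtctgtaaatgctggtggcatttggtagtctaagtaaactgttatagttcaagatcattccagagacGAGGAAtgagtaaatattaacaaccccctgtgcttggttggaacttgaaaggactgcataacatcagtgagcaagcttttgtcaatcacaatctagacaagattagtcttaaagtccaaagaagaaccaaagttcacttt
In window 1 the letters TTCCTC begin 35 bases before the start, and in window 2 the letters GAGGAA begin 140 bases before it. GC made up 41.2% and 35.2% of these windows, against a median of 58.0% over the 35116 promoter windows of the table. GAGGAA on either strand was in 27.9% of all windows, each running from 250 bases before to 50 bases after a start, so a match is a common feature of such windows. None of the 3 MITF windows, the 3 TFEB windows or the single TFE3 window held it, and no window of the 4 genes held CACGTG or its extended forms TCACGTGA and TCATGTGA on either strand. A match here is a match of letters, and binding at these windows was not measured.

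TFEC (ENSG00000105967, chr7:115935152-116159896 on GRCh38, minus strand) had 1 and 2 counts in the sgNeg libraries and 389 and 495 counts in the sgNPM1A libraries. Both sgNeg libraries were at or under a floor of 3 counts, and both sgNPM1A libraries were more than 100 counts above it, so the groups did not overlap. As TMM-normalized CPM, the read counts scaled to a common library size, the levels were 0.0393 and 0.0772 in sgNeg and 13.96 and 17.8 in sgNPM1A, with means of 0.0583 ± 0.0268 and 15.9 ± 2.74 (SD, n = 2). The ratio of the summed counts per effective library size was 272, with an exact 95% counting interval from 92.7 to 1320.4. The width of this interval comes from the 3 counts of the sgNeg side, and it covers counting error only. The 2 sgNPM1A libraries differed from each other by more than counting error, with exact Poisson intervals of 12.6 to 15.4 CPM and 16.3 to 19.5 CPM. Of 38601 genes in the table with 3 counts or fewer in both sgNeg libraries, only TFEC and FGF18 reached 100 counts in each sgNPM1A library.

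**Figure D1:**
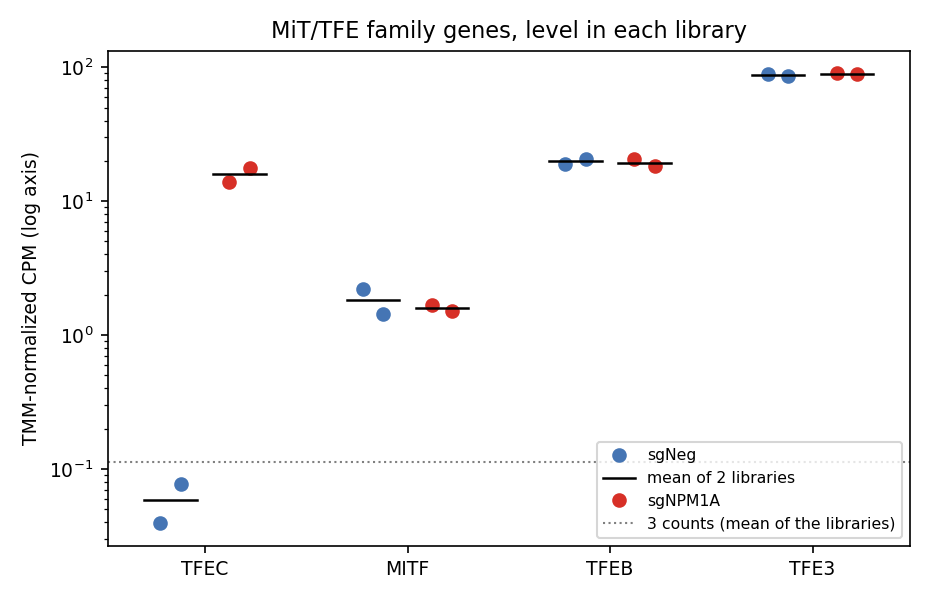
TMM-normalized CPM (log axis) of TFEC, MITF, TFEB and TFE3, with a point for each library of sgNeg (blue) and sgNPM1A (red), a black line for the mean of 2 libraries and a dotted line at 3 counts. The sgNeg points of TFEC lie below the dotted line and its sgNPM1A points at 13.96 and 17.8 CPM, while the points of the other 3 genes overlap between the groups.

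The other 3 members differed little between the groups, and none of them was called. Calls rest on edgeR's quasi-likelihood test, with a Benjamini-Hochberg adjusted p under 0.05 over 15718 tested genes and an absolute log2 fold change of at least 0.32, the fold threshold of the study. By this rule 10.5% of tested genes were called higher in sgNPM1A, 10.3% were called lower and 20.8% in either direction, and the median log2 fold change of all tested genes was 0.00. Of MITF, TFEB and TFE3, 0 were called by edgeR, 0 had an unadjusted p under 0.05, and 0 were called by DESeq2 or limma. The libraries of the 2 groups overlapped for all 3, whereas they did not overlap for 63.1% of tested genes. For a single gene the exact permutation test of 2 against 2 libraries cannot go below a two-sided p of 0.333.

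TFE3 (ENSG00000068323, chrX:49028726-49043357, minus strand), with TFEB a broadly expressed regulator of lysosomal genes, had 2276 and 2235 counts in sgNeg and 2517 and 2455 in sgNPM1A. Its level was 87.9 ± 2.29 CPM in sgNeg and 89.4 ± 1.33 CPM in sgNPM1A (SD, n = 2), a log2 fold change of 0.02 with a 95% interval from -0.13 to 0.17 (edgeR adjusted p = 0.838). This interval leaves out changes of the size of the fold threshold in either direction.

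TFEB (ENSG00000112561, chr6:41683978-41736223, minus strand), the member best known for its control by mTORC1, had 483 and 539 counts in sgNeg and 573 and 508 in sgNPM1A. Its level was 19.9 ± 1.28 CPM in sgNeg and 19.4 ± 1.60 CPM in sgNPM1A, a log2 fold change of -0.04 with a 95% interval from -0.26 to 0.19 (edgeR adjusted p = 0.838), which also leaves out changes of that size. In a search for identical stretches of 50 bases, 1.31% of those in TFEB transcripts also occurred in transcripts of other genes, and none of those in TFEC, MITF or TFE3 did.

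MITF (ENSG00000187098, chr3:69739464-69968332, plus strand), the regulator of melanocytes, mast cells and osteoclasts, was the scarcest of the 3, with 56 and 37 counts in sgNeg and 47 and 42 in sgNPM1A. Its level was 1.82 ± 0.548 CPM in sgNeg and 1.60 ± 0.123 CPM in sgNPM1A, a log2 fold change of -0.18 with a 95% interval from -0.76 to 0.40 (edgeR adjusted p = 0.662). At these counts a change of the size of the threshold was not detectable. Without sgNeg library 1 the log2 fold change of MITF turned to 0.16.

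Levels of different genes were compared per length, as TPM, the length-scaled share of all transcripts, over the union of each gene's annotated exons. In sgNeg the order was TFE3 at 66.8 ± 3.01 TPM, TFEB at 9.46 ± 0.429, MITF at 0.785 ± 0.251 and TFEC at 0.0215 ± 0.0095 (SD, n = 2). In sgNPM1A TFEC stood above MITF, with TFE3 at 64.5 ± 0.792 TPM, TFEB at 8.77 ± 0.699, TFEC at 5.58 ± 0.976 and MITF at 0.654 ± 0.0485. No neighbours in either order overlapped between their libraries. With the length of the canonical transcript of each gene in place of the exon union the order was the same in both groups, and TFEB, whose canonical transcript is 2333 bases against an exon union of 6722 bases, moved to 16.7 and 15.4 TPM.

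TFE3 mRNA made up most of the family's mRNA in every library, at 87.2% and 86.2% of the summed TPM in sgNeg and 81.4% and 80.8% in sgNPM1A. The share of TFEC was 0.0186% and 0.0375% in sgNeg and 6.12% and 7.93% in sgNPM1A, or 5.43% and 7.11% in sgNPM1A with canonical transcript lengths. TFEB made up between 10.5% and 13.0% in the 4 libraries and MITF between 0.784% and 1.22%. With canonical lengths TFEB made up between 20.8% and 25.2% and TFE3 between 70.9% and 76.0%, so these shares depend on the length chosen. The summed TPM of the family was 79.1 and 75.1 in sgNeg and 79.9 and 79.1 in sgNPM1A, about the same in both groups. TPM is a share of all transcripts without TMM scaling, so this comparison of totals depends on the unit. TFE3 went from 66.8 TPM in sgNeg to 64.5 TPM in sgNPM1A, but from 87.9 to 89.4 TMM-normalized CPM. TFEC dimerises with its relatives, and dimers and proteins were not measured here.

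**Figure D2:**
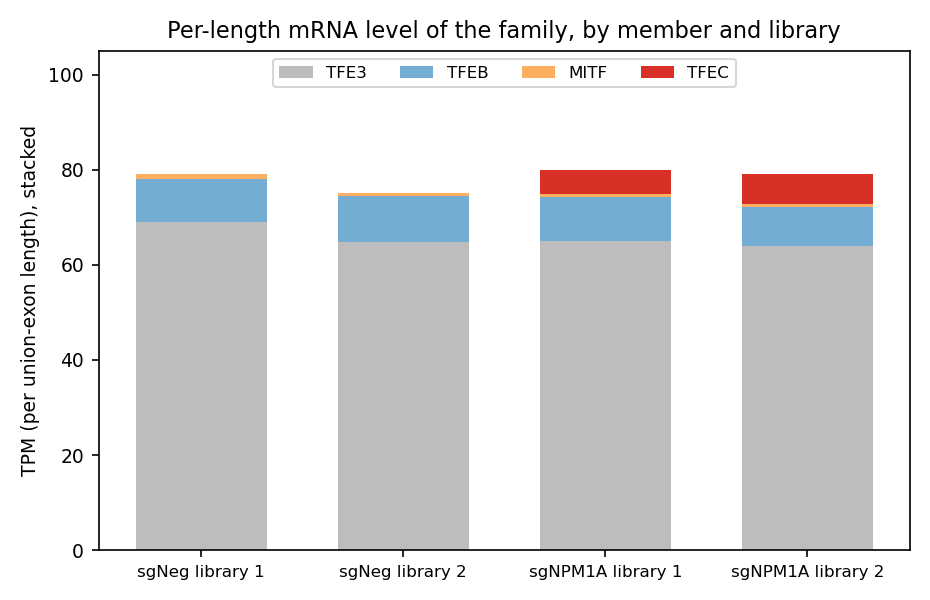
Stacked TPM per union-exon length of TFE3 (grey), TFEB (light blue), MITF (orange) and TFEC (red), a bar for each of the 4 libraries. The TFEC segment is too thin to see in sgNeg and reaches 4.89 and 6.27 TPM in the sgNPM1A libraries, above a TFE3 segment that fills most of each bar.

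The genes whose pattern was most like that of TFEC were found by Euclidean distance of log2 CPM, with a prior count of 2, over the 4 libraries. FGF18, a secreted fibroblast growth factor, was nearest at a distance of 0.717, against a median distance of 9.68 over tested genes. Its counts were 1 and 1 in sgNeg and 367 and 332 in sgNPM1A. CALB2, which encodes the calcium-binding protein calretinin, followed at 2.58 with 10 and 7 counts in sgNeg and 284 and 255 in sgNPM1A. PRLR, the prolactin receptor, stood at 2.67, PTGER2, a prostaglandin receptor, at 2.98, and SYTL1, a synaptotagmin-like protein of vesicle traffic, at 3.04. All 5 were high in both sgNPM1A libraries and low in both sgNeg libraries, which the measure of likeness itself selects.

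**Figure D3:**
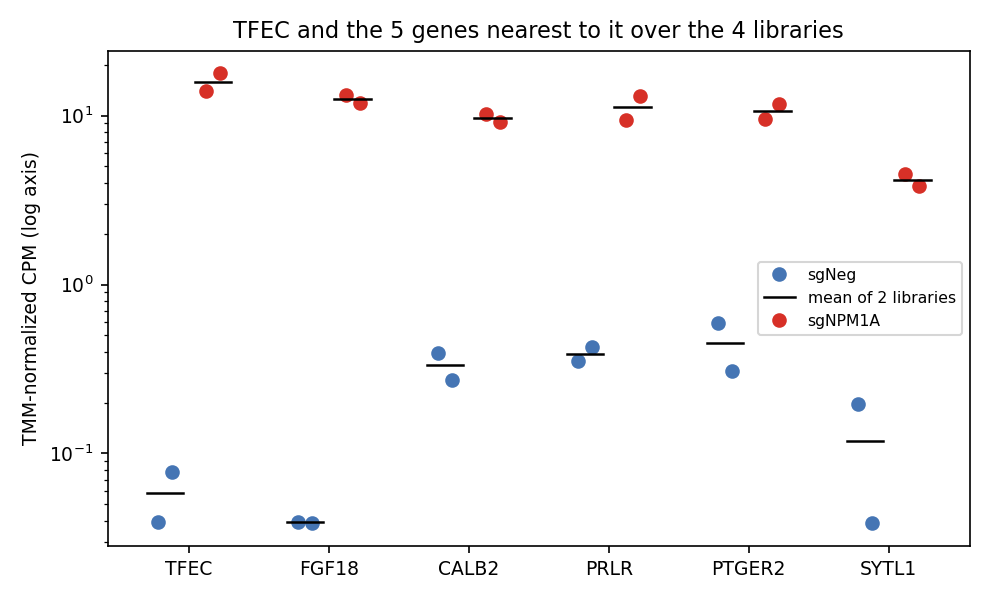
TMM-normalized CPM (log axis) of TFEC and of the 5 genes nearest to it, a point for each sgNeg (blue) and sgNPM1A (red) library and a black line for the mean of 2 libraries. FGF18 matches TFEC most closely, with both sgNeg points near 0.04 CPM, whereas CALB2, PRLR and PTGER2 start from higher sgNeg levels.

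On the chromosome, TFEC has protein-coding neighbours on both sides, and those nearest to it were silent. Before and after give coordinate order for the neighbours of all members. TFEC, TFEB and TFE3 are on the minus strand, so genes after them lie on their upstream side. TES, 50.6 kb after TFEC, had 0 and 0 counts in sgNeg and 1 and 0 in sgNPM1A, and CAV2, 339.8 kb after it, had 1 count in each sgNeg library and 0 in each sgNPM1A library. The genes before it lie farther off. MDFIC, an inhibitor of MyoD-type factors 915 kb away, had 300 and 239 counts in sgNeg and 508 and 545 in sgNPM1A, and rose with a log2 fold change of 0.85 (SE 0.13, edgeR adjusted p = 0.000578). FOXP2, a forkhead factor 1241 kb away, had 8 and 12 counts in sgNeg and 33 and 20 in sgNPM1A (log2 fold change 1.28, edgeR adjusted p = 0.0400). The call of FOXP2 was lost with DESeq2 (adjusted p = 0.255) and without sgNeg library 1, sgNeg library 2 or sgNPM1A library 1 (edgeR adjusted p = 0.187, 0.0798 and 0.390).

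The same families flank the other members, since MDFI-type genes and FOXP genes lie near TFEC, MITF and TFEB. FOXP1, 986 kb after MITF, had 702 and 751 counts in sgNeg and 1049 and 1064 in sgNPM1A, and rose with a log2 fold change of 0.42 (edgeR adjusted p = 0.00306). FOXP4, 81.6 kb before TFEB, had 5366 and 5251 counts in sgNeg and 2865 and 2559 in sgNPM1A, and fell with a log2 fold change of -1.09 (edgeR adjusted p = 1.52e-06). MDFIC2 by MITF had no count in any library, and MDFI by TFEB had 1 and 2 counts in sgNeg and 7 and 0 in sgNPM1A. The called FOXP genes thus moved in different directions beside family genes of which MITF and TFEB were not called. FOXP3, which lies 207 kb after TFE3, is named after the other neighbours were seen. It had 8 and 21 counts in sgNeg and 34 and 30 in sgNPM1A and was not called.

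Near TFE3 the potassium channel gene KCND1 had 94 counts in each sgNeg library and 151 and 153 in sgNPM1A (log2 fold change 0.58, edgeR adjusted p = 0.0185), a call that DESeq2 did not give (adjusted p = 0.146). It was also lost without sgNeg library 2, sgNPM1A library 1 or sgNPM1A library 2 (edgeR adjusted p = 0.0535, 0.0660 and 0.0924). GRIPAP1, CCDC120 and PRAF2, the other neighbours of TFE3, were not called, and neither was FRS3 beside TFEB. PGC, which lies 0.488 kb after TFEB in coordinate order, had 3 counts at most, as did FRMD4B and LMOD3 near MITF.

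**Figure D4:**
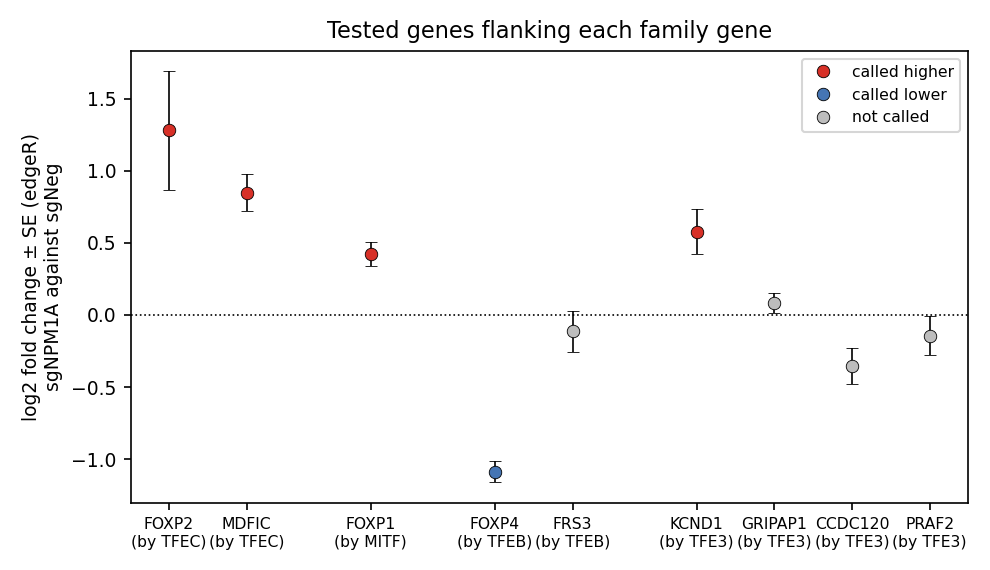
Log2 fold change of sgNPM1A against sgNeg with its SE (edgeR) for the 9 tested genes among the 16 neighbours, grouped by the family gene that they flank and coloured by their call. FOXP2, MDFIC, FOXP1 and KCND1 lie above 0 and were called higher, FOXP4 lies at -1.09 and was called lower, and the other 4 were not called. Of all tested genes 10.5% were called higher and 10.3% lower. DESeq2 did not call FOXP2 or KCND1.

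The factors known to act on the TFEC gene in macrophages moved unequally. SPI1, which encodes PU.1, had 11490 and 12817 counts in sgNeg and 18832 and 17865 in sgNPM1A, rose from 473 ± 30.3 to 659.5 ± 22.8 CPM (SD, n = 2), and had a log2 fold change of 0.48 (SE 0.07, edgeR adjusted p = 0.000552). STAT6, which carries the interleukin-4 signal, was at 414 ± 1.22 CPM in sgNeg and 353 ± 5.01 CPM in sgNPM1A, a log2 fold change of -0.23 (edgeR adjusted p = 0.0210) under the fold threshold, and was not called. The receptor subunit IL4R, with a log2 fold change of 0.22, and the kinase JAK1, with -0.03, were not called either. SPI1 was the 1 called gene of these 4, which is near the 20.8% of all tested genes called in either direction.

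Of 14 macrophage and osteoclast genes that share regulators or cell types with the family, 10 were tested, 6 were called higher and 2 lower, beside 10.5% and 10.3% of all tested genes, with a median log2 fold change of 0.46. CSF1R, the receptor for macrophage colony-stimulating factor, rose from 23.6 ± 0.598 to 54.8 ± 3.94 CPM (log2 fold change 1.22, edgeR adjusted p = 2.35e-06). CSF3R, the receptor for granulocyte colony-stimulating factor, rose by 1.40 on the log2 scale, and TREM2, a receptor of macrophages that signals through TYROBP, rose by 1.16. TNFRSF11A, which encodes RANK, the receptor that starts osteoclast formation, fell from 23.1 ± 0.994 to 4.28 ± 0.700 CPM, with a log2 fold change of -2.43. The osteoclast fusion genes DCSTAMP and OCSTAMP were too low to test, with at most 13 counts in a library. Other osteoclast genes of the list, named after their values were seen, did not move as one. CTSK, the bone-degrading cathepsin K, was called higher with a log2 fold change of 0.52 (edgeR adjusted p = 0.0379), a call lost with DESeq2 (adjusted p = 0.133), with library size only (edgeR adjusted p = 0.0516), and without sgNeg library 1 or sgNPM1A library 2 (edgeR adjusted p = 0.192 and 0.0816). MMP9, a secreted protease, fell with a log2 fold change of -1.05.

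Most tested monocyte and macrophage markers were higher in the same libraries as TFEC. So were most tested immature myeloid and granule markers. Of 16 monocyte and macrophage markers, 15 matched a row and 13 were tested. Of these, 9 were called higher and 2 lower, beside 10.5% and 10.3% of all tested genes, and the median log2 fold change was 1.71. Their summed level was 608 to 640.1 CPM in sgNeg and 3522 to 4379 CPM in sgNPM1A, while MSR1 had 0 counts in all 4 libraries. LYZ, the lysozyme gene, had a log2 fold change of 3.63, S100A9 of 2.72 and S100A8 of 2.57, whereas CD163, a scavenger receptor of macrophages, fell from 27.7 ± 0.323 to 3.47 ± 0.0160 CPM. Of 10 immature myeloid and granule markers, 6 were tested and 5 were called higher, beside 10.5% of all tested genes. PRTN3 (log2 fold change 2.21) and MPO (1.77) led them. The summed level of the 10 markers was 3342 to 3380 CPM in sgNeg and 6093 to 6145 CPM in sgNPM1A. The part of a shift in maturation in the level of TFEC was not tested. In bulk RNA, more cells with TFEC and more TFEC mRNA per cell cannot be told apart.

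The libraries were myeloid by their markers. ELANE and CTSG, proteases of granules, and CD33 were abundant, at 826, 1177 and 85.4 CPM in sgNeg, while CD3E, MS4A1, HBB, EPCAM and KRT19 had 0 counts in all 4 libraries. Of 13 genes of melanocytes, where MITF is the master regulator, 8 had 3 counts or fewer in every library, and of 7 mast cell genes 5 did. TYRP1, at 22 and 13 counts in sgNeg and 4 and 4 in sgNPM1A, and MS4A2, at 12 and 12 counts and then 24 and 39, were the called genes of these lists, both under 1 CPM on average and named after their values were seen. DESeq2 called neither, no melanocyte gene was called lower without sgNeg library 1, and no mast cell gene was called higher without sgNeg library 1, sgNeg library 2 or sgNPM1A library 2. COL1A2, a collagen gene on the list of non-blood markers, fell from 28.02 ± 0.787 to 11.1 ± 2.56 CPM.

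Control of the family by nutrients runs through mTORC1 and the Rag GTPases, and here 26 of 27 genes of this pathway were tested, of which 4 were called higher and the other 22 were not called, beside 10.5% of all tested genes called higher, with a median log2 fold change of 0.08. DESeq2 called 2 of them higher. SESN3, a sestrin that restrains mTORC1, had 1149 and 826 counts in sgNeg and 3460 and 4008 in sgNPM1A, and rose by 1.80 on the log2 scale (edgeR adjusted p = 3.24e-06). RRAGD, a Rag GTPase that presents TFEB to mTORC1 and is itself a MiT/TFE target, rose by 0.50, LAMTOR3, a Ragulator subunit, by 0.47, and DEPDC5, a subunit of the GATOR complex that inactivates Rag, by 0.35. DESeq2 gave no call for RRAGD (adjusted p = 0.0539) or DEPDC5 (adjusted p = 0.0585), and DEPDC5 also lost its call with library size only (log2 fold change 0.31) and without sgNeg library 2 or sgNPM1A library 2 (edgeR adjusted p = 0.0610 and 0.228). FLCN, which acts on RagC and RagD so that TFEB is phosphorylated, was at 26.2 ± 1.92 CPM in sgNeg and 31.4 ± 2.73 CPM in sgNPM1A and was not called (edgeR adjusted p = 0.0723).

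Among 16 genes for other kinases, for calcineurin, for 14-3-3 proteins and for nuclear export, 2 were called lower and the other 14 were not called, with a median log2 fold change of -0.07. This is near the 10.3% of all tested genes that were called lower. PPP3CA, a catalytic subunit of calcineurin, which dephosphorylates TFEB, fell from 90.7 ± 6.02 to 62.7 ± 2.18 CPM (log2 fold change -0.53, edgeR adjusted p = 0.000411). The other catalytic subunits had values in the other direction and were not called, PPP3CB at 50.8 ± 2.24 and 61.2 ± 2.12 CPM (log2 fold change 0.27, edgeR adjusted p = 0.0244, under the fold threshold) and PPP3CC with a log2 fold change of 0.22 (edgeR adjusted p = 0.215), both named after their values were seen. AKT1, a kinase that phosphorylates TFEB, fell by 0.37 on the log2 scale. XPO1, the exportin that carries TFEB out of the nucleus, had a log2 fold change of -0.14 and was not called (edgeR adjusted p = 0.223).

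Genes commonly used to read out the activity of the family gave 1 call in 9 tested genes of 10, with a median log2 fold change of 0.26. The called gene was RRAGD, at 8.36 ± 0.359 CPM in sgNeg and 11.8 ± 0.171 CPM in sgNPM1A. GPNMB, a transmembrane glycoprotein strongly driven by the family in other cells, had only 7 and 12 counts in sgNeg and 12 and 15 in sgNPM1A (edgeR adjusted p = 0.577). SQSTM1, the autophagy receptor p62, was at 77.6 ± 2.95 CPM in sgNeg and 63.8 ± 2.03 CPM in sgNPM1A, below the fold threshold at an edgeR adjusted p of 0.0150, and was not called. PPARGC1A, a TFEB target in liver, had no count in any library. DESeq2 gave 0 calls (3 higher and 1 lower had an unadjusted p under 0.05 by edgeR), and without sgNeg library 1 edgeR gave 2. Read against the 10.5% of tested genes called higher, 1 in 9 is near the background.

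Lysosome and autophagy genes are the main programme of the family, and most of them were not called. Of 100 such genes 98 were tested, 16 were called higher, 9 were called lower and 73 were not called, with a median log2 fold change of 0.06, beside the 10.5% and 10.3% of all tested genes. The hydrolases held most of the calls, with 10 higher and 4 lower of 36 tested and a median of 0.15. IDS, iduronate sulfatase, rose from 9.60 ± 0.948 to 19.8 ± 0.715 CPM (log2 fold change 1.04), LIPA, the lysosomal acid lipase, rose by 0.82, while CTSF, cathepsin F, had a log2 fold change of -0.70. Of 18 subunits of the vacuolar ATPase, the pump that acidifies lysosomes, 3 were called higher and 15 were not called. Their median was 0.23, and 13 of the 18 lay above 0. ATP6V0A1, a membrane subunit, had 381 and 394 counts in sgNeg and 1039 and 1057 in sgNPM1A (log2 fold change 1.32, edgeR adjusted p = 1.36e-06), ATP6V1A rose by 0.48 and ATP6V1F by 0.43. The call of ATP6V1A was lost without sgNeg library 2 (edgeR adjusted p = 0.0743) and without sgNPM1A library 2 (edgeR adjusted p = 0.0984).

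Of 17 lysosomal membrane proteins 2 were called higher and 9 had a log2 fold change above 0, with a median of 0.01. The called genes were PIP4P1, a phosphatase that positions lysosomes, and SLC17A5, the sialic acid exporter, at log2 fold changes of 0.51 and 0.48. Of 27 tested autophagy genes 5 were called lower and 1 higher, beside 10.3% and 10.5% of all tested genes, and 11 of the 27 had a log2 fold change above 0, with a median of -0.08. ULK1, the kinase that starts autophagy, had a log2 fold change of -0.57, the autophagy receptors OPTN and CALCOCO2 had -0.50 and -0.45, and ATG16L1, part of the complex that attaches LC3 to membranes, had -0.43. ATG7, an enzyme of the same conjugation pathway and the only autophagy gene called higher, is named after its values were seen and had a log2 fold change of 0.42. The autophagy genes called higher numbered 2 without sgNeg library 1 and 0 without sgNPM1A library 2.

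The 12 other factors that bind E-boxes, which could share sites with the family, gave 0 calls in 11 tested genes by edgeR. Of all tested genes 20.8% were called in either direction, and the median log2 fold change of the 11 was 0.06. Several had an edgeR adjusted p from 0.00746 to 0.0277 but lay under the log2 fold threshold of 0.3219, and are named after their values were seen. SREBF1 (log2 fold change 0.29), MLXIPL (0.3208) and SREBF2 (0.26) were higher, and MYC (-0.25) and TFAP4 (-0.25) were lower. At an unadjusted p under 0.05 there were 4 higher and 2 lower, DESeq2 called 1 higher, and limma called none. There was 1 call higher without sgNeg library 1, sgNeg library 2 or sgNPM1A library 2.

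**Figure D5:**
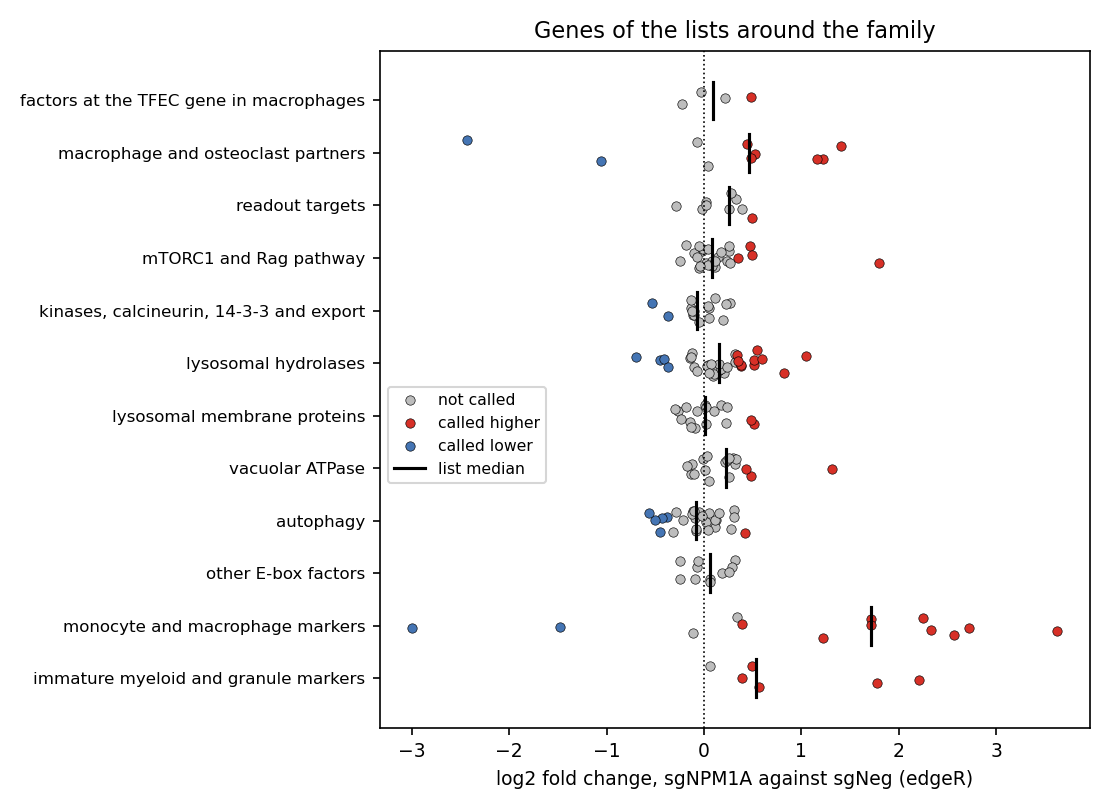
Log2 fold change of sgNPM1A against sgNeg (edgeR) for the tested genes of 12 lists, a point for each gene, red if called higher, blue if called lower and grey if not called, with a black bar at the list's median. Lysosome, autophagy and mTORC1 lists have medians from -0.08 for autophagy to 0.23 for the vacuolar ATPase, and the monocyte and macrophage markers have a median of 1.71.

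CACGTG, the E-box that the family binds, was in 7.26% of all promoter windows and in 22 of the 101 windows (21.8%) that RefSeq gives for 75 of the lysosome and autophagy genes. The extended forms TCACGTGA and TCATGTGA, which contain or vary that core, were in 1.97% of all windows and in 17.8% of those. In the mTORC1 and Rag genes CACGTG was in 7 of 34 windows (20.6%). Lysosome and autophagy genes with and without calls both held the E-box, namely 4 of 11 genes called higher (CTSD, GAA, GALNS and NEU1), 1 of 7 called lower (CTSF) and 15 of 56 not called. Of the 16 windows of monocyte and macrophage markers, 11 (68.8%) held GAGGAA and none held CACGTG. No test was made on these shares.

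NPM1, the gene that the guide targets, had 33522 and 35881 counts in sgNeg and 33154 and 31428 in sgNPM1A, or 1352 ± 47.1 and 1161 ± 40.7 CPM (log2 fold change -0.22, edgeR adjusted p = 0.0360), which is under the fold threshold. limma on quantile-normalized values gave -0.42 and a call (adjusted p = 0.00108). Its count does not separate the mutant from the wild-type copy, so it is a weak check of the labels. Total counts per library lay between 25069484 and 28276391, and the 2 libraries of a group differed by more than sampling noise.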

How the data were processed

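RNA-Seq counts per Ensembl gene were deposited by the authors in 1 table of 58037 rows, without normalization, for 4 libraries. Reads were mapped to hg38 with STAR per the submitters' processing notes; the counting program and annotation release are not given in the sources used here. Total counts lay between 25069484 and 28276391. Symbols were found for 55603 rows, and 0 rows name an ERCC spike-in. Antisense reads cannot be separated, since strand in counting is not stated.

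Samples were grouped by genotype label. edgeR 4.0.16 in R 4.3.3 was used with filterByExpr by group (minimum count 10), TMM, robust dispersion and the two-sided quasi-likelihood test; called genes passed 0.05 after Benjamini-Hochberg adjustment and changed at least 1.25-fold. CPM are TMM-normalized. TPM used union-exon lengths of GENCODE transcripts lifted to GRCh37, or canonical transcript lengths. Positions are those of Ensembl or RefSeq on GRCh38. Neighbours are the 2 nearest protein-coding genes on each side in RefSeq. The fit was tested on simulated data.

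The members and lists were chosen with earlier results of these data known. The text names the members, up to 4 called genes per list with the largest absolute log2 fold change and a mean of at least 1 CPM, 8 list genes with a role to explain, the 5 genes nearest to TFEC and the neighbours. Other list genes were named after their values were seen. A gene that this rule covers is not reported here. Alternatives were DESeq2 1.42.0, limma 3.58.1 on quantile-normalized values, RLE factors, library size only, other filters and fold thresholds, canonical lengths, the replicate block, a crossed block added after the data were seen, and leaving out each library. Pairing of equal replicate numbers was checked by the correlation of their deviations from the group means, which was -0.130, and -0.523 over 8856 genes with a mean above 10 CPM.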

Additional observations from a re-analysis of the deposited data

How the results depend on the processing

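No call of MITF, TFEB or TFE3 was gained under any alternative, but their small fold changes had no stable sign. MITF went from -0.18 to a range of -0.46 to 0.16 on the log2 scale when each library was left out (0.16 without sgNeg library 1). TFEB went from -0.04 to a range of -0.12 to 0.049 (0.033 without sgNeg library 2 and 0.049 without sgNPM1A library 2). TFE3 went from 0.02 to a range of -0.0020 to 0.049, was -0.0020 without sgNeg library 2, and was -0.017 with library size only. The replicate block gave log2 fold changes of -0.17, -0.04 and 0.02 for MITF, TFEB and TFE3 and calls of 1637 higher and 1604 lower. It changed the call of 0 of the 53 named genes that were checked under the alternatives. The replicate numbers share no source in the labels. With the crossed pairing 1955 genes were called higher and 1918 lower. JAK1, at -0.03 and not called, ranged from -0.11 to 0.059 with each library left out (0.014 without sgNeg library 1 and 0.059 without sgNPM1A library 1). The TFEC ratio was 271.9 with RLE factors, 264 with library size only, and between 206 and 404 with each library left out. It rests on 3 sgNeg counts, 1 and 2 per library, so its size is known only within its counting interval. A fold of at least 2 left 498 genes higher and 502 lower, with 2 higher and 0 lower among lysosome and autophagy genes, and no fold threshold gave 25 of these higher. Library size only moved the median of all genes to -0.04 and the calls to 1433 higher and 1947 lower. A minimum of 10 counts in every library left TFEC out. MITF, at 37 to 56 counts, limits what its comparison can show, and with 2 libraries a group every leave-one-out fit assumes that the lone library varies like the others.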
